A study of Mus musculus with 8 samples.

Results

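Type 2 Cd209a dendritic cells (DCs) of the mouse liver were picked from single-cell RNA-seq data by their raw counts of unique molecular identifiers (UMIs), each of which stands for 1 captured mRNA molecule. A cell was taken when it had at least 2 UMIs of Cd209a, at least 1 UMI of Flt3 or of Klrd1, and 0 UMIs of Xcr1, Clec9a, Trem2, Gpnmb, Siglech, Fscn1, Cd3e and Cd79a. Cells were kept where over 500 genes were seen and mitochondrial genes gave less than 25% of the UMIs, and of these 80474 cells 1181 met the rule. They came from C57BL/6 mice of wild-type genotype: 2 controls on a normal diet and drinking water, 3 mice on a high-fat diet with fructose in solution and CCl4 injected into the peritoneum (HFD+F+CCl4), and 3 mice on a western diet with the same fructose and CCl4 (WD+F+CCl4). The 6 mice of both models are called NASH here, after nonalcoholic steatohepatitis. No group received a diet, the fructose or CCl4 on its own, so their parts in any difference cannot be told apart. Whole livers were perfused and dissociated, red blood cells were lysed, dead cells were removed, and each liver gave 1 library of the 10x Chromium 3' kit. The labels name 8 samples, each mouse counts as 1 replicate, and all p-values measure the spread between these libraries.

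DCs take up antigen, cut it into peptides and show these on major histocompatibility complex (MHC) molecules to T cells. Conventional DCs fall into type 1 cells, which depend on the transcription factors Irf8 and Batf3 and carry Xcr1 and Clec9a, and type 2 cells, which lean on Irf4, Klf4 and Zeb2 and mainly present on MHC class II to CD4 T cells. Cd209a is a C-type lectin of mouse type 2 DCs and of DCs that arise from monocytes, Flt3 is the growth factor receptor of the DC lineage, and Klrd1 (CD94) is a receptor chain best known from NK cells. In the healthy liver DCs lie mostly around portal tracts.

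The rule left 47 and 10 cells in the control mice, 95, 223 and 150 under HFD+F+CCl4, and 198, 366 and 92 under WD+F+CCl4. Together these cells held 266436 and 19798 UMIs in the controls and between 569687 and 1974386 in the NASH mice. The median cell had 5380 UMIs in control replicate 1, 1353 in control replicate 2, and 4785.5 to 6658 in the NASH mice, so every value of control replicate 2 rests on few and shallow cells. Levels are given as counts per 1e+06 UMIs (CPM) of the summed cells of a mouse, and 1 UMI was worth 50.5 CPM in control replicate 2. None of the barcode sequences marked such a cell in more than 1 library.

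The control libraries stood apart from the NASH libraries in ways that were not limited to DCs. Over all kept cells the mitochondrial gene mt-Nd3 lay at 3.10 and 4.47 CPM in the controls and at 521 to 1402 CPM in the NASH mice, and in the Cd209a DCs at 11.3 and 0 against 397 to 873 CPM. The pseudogene Gm28438 had the opposite pattern, at 457 and 259 CPM in the controls and 0.155 to 1.38 in the NASH mice over all kept cells, and at 372 and 202 against 0 to 0.506 CPM in the Cd209a DCs. The labels and methods do not say whether the control libraries were counted against another annotation or handled in another way, and for every value of NASH against control below such a difference and the disease model cannot be told apart. RNA of other cells was also unequal. Summed over 12 T cell markers, the Cd209a DCs of the controls held 360 and 960 CPM against 10.6 to 36.7 in the NASH mice, although Cd3e itself was 0 by rule and Cd3d was the most abundant gene of the list. NK cell markers, led by Gzma and with Cma1 and Klra8 at 0, summed to 327 and 1414 against 20.4 to 56.4 CPM. The 15 hepatocyte markers, led by Alb, summed to 3828 and 2475 CPM in the controls against 259 to 1390 in the NASH mice. Neutrophil markers, led by S100a9, lay at 90.1 and 50.5 in the controls and between 245 and 7155 in the NASH mice, with WD+F+CCl4 replicate 1 at the top. Kupffer cell markers, led by C1qb, summed to 165 and 50.5 CPM in the controls and 123 to 860 in the NASH mice, which overlapped. Over all kept cells they summed to 131 and 193 against 1825 to 7679 CPM. For the comparisons below, cells that carried such transcripts were left out as an alternative. NASH changes were also set against those in cells with Cd3e. Beyond this, the part of these transcripts was not tested. Cells with a UMI of any of 14 genes of other cell types were taken as possible doublets, and without them 25 and 4 control cells and 67 to 354 NASH cells were left. No doublet caller was run.

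The label was checked against markers that the rule did not use. Mgl2 and Clec10a, the galactose-binding lectins of type 2 DCs, averaged 160 ± 107 and 266 ± 84.5 CPM (SD, n = 8 mice), against 2.61 ± 6.71 and 2.33 ± 2.61 CPM in type 1 DCs, cells with at least 2 UMIs of Xcr1 and Clec9a and none of Cd209a. Clec10a was detected in 30 to 68.0% of the Cd209a DCs of a mouse, and in 2.15 to 4.26% of cells with Cd3e and no Cd209a, which should lack it, at median depths of 1353 to 6658 and 1095 to 3308 UMIs. After thinning to 1000 UMIs per cell the shares were 11.1 to 29.8% and 0.575 to 3.32%. Mgl2 was sparse, with a UMI in 9.33 to 29.1% of the Cd209a DCs and in 0 to 0.861% of cells with Cd3e, and after thinning in 3.33 to 12.1% and 0 to 0.246%. The MHC class II chain H2-Ab1 stood at 9042 ± 2130 CPM against 977 ± 378 in classical monocytes. Irf4 averaged 76.4 ± 35.6 CPM and Zbtb46, a transcription factor of conventional DCs, 46.6 ± 8.32 CPM, with classical monocytes at 30.8 ± 39.2 and 4.85 ± 8.53. Type 1 DCs held H2-Ab1 at 8006 ± 1091 CPM and Zbtb46 at 62.3 ± 18.6, so these 2 genes set the cells apart from monocytes and not from type 1 DCs, whose Irf4 averaged 6.40 ± 5.43 CPM. The name type 2 rather than type 1 thus rested on the lectins and Irf4. Ccr2, the monocyte chemokine receptor, was also present at 729 ± 171 CPM, beside 521 ± 105 in type 1 DCs. Classical monocytes, which were picked by Ccr2 among other genes, held 1193 ± 261 CPM.

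**Figure D1:**
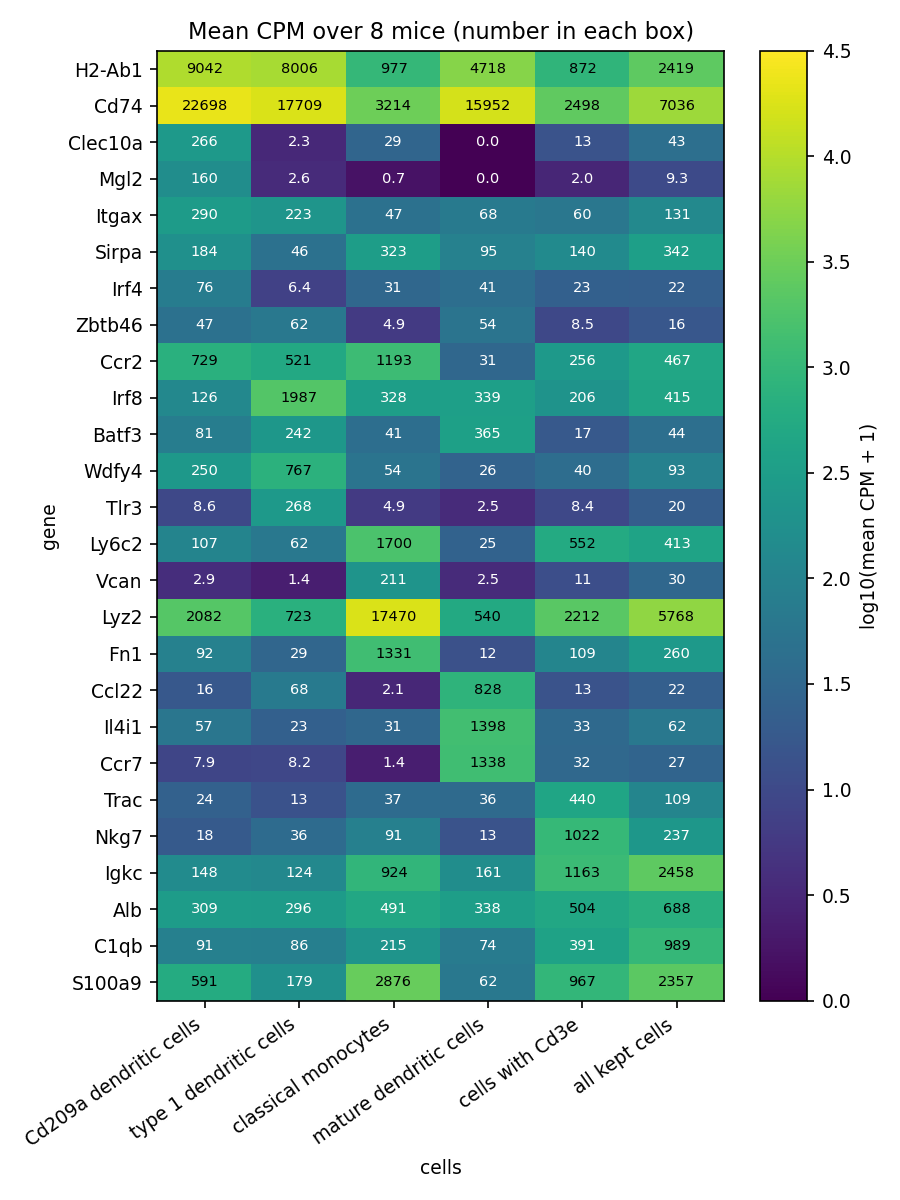
Mean level of 26 genes (colour, log10 of mean CPM + 1, with the mean over 8 mice in each box) in the Cd209a DCs, 4 other sets of cells and all kept cells. Mgl2 and Clec10a are high in the Cd209a DCs and near 0 in type 1 and mature DCs, whereas Lyz2 peaks in classical monocytes at 17470 CPM.

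Cells just inside and just outside the limit on Cd209a were set side by side in pooled counts, as a description. The 218 cells with exactly 2 UMIs held 59.7 CPM of Mgl2, 247 of Clec10a, 9798 of H2-Ab1 and 63.9 of Ly6c2. The 298 cells that met every other criterion with exactly 1 UMI held 50.1, 193, 8953 and 141 CPM of these genes in the same order. The 963 cells with at least 3 UMIs held 133, 319, 10016 and 81.4 CPM. Ly6c2, a surface protein of classical monocytes, was thus highest just outside the limit. Of 2437 cells with Cd209a and Flt3 or Klrd1, a UMI of Trem2 or Gpnmb removed 648, Siglech 530, Xcr1 or Clec9a 322, Cd3e 138, Cd79a 94 and Fscn1 43, with some cells removed by several genes. Among the cells taken, 613 (51.9%) had both Flt3 and Klrd1, 480 (40.6%) had Klrd1 alone and 88 (7.45%) had Flt3 alone.

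Cd209a DCs made up 0.436% and 0.240% of the kept cells of the control mice. The HFD+F+CCl4 mice had shares of 0.850%, 2.20% and 1.41%, and the WD+F+CCl4 mice of 1.65%, 3.72% and 0.785%. Every NASH mouse lay above both controls, and the mice of either model overlapped. The rule itself took unequal parts of the cells with at least 2 UMIs of Cd209a, 19.7% and 25% in the controls against 33.3 to 58.5% in the NASH mice. Of 238 such cells in control replicate 1, 52 had neither Flt3 nor Klrd1. Among the others Siglech removed 90, Xcr1 or Clec9a 53, Cd3e 52 and Cd79a 39, with some removed by several genes. By the limit on Cd209a alone, an alternative added after the data had been seen, the shares were 2.21% and 0.960% in the controls and 2.16 to 6.36% in the NASH mice, so that WD+F+CCl4 replicate 3 lay below control replicate 1. The means were then 3.82% ± 1.74 and 1.58% ± 0.881 (exact permutation p = 0.143). By the whole rule the mean share was 1.77% ± 1.09 in NASH (SD, n = 6) against 0.338% ± 0.138 in controls (n = 2), a difference of 1.43 percentage points (exact two-sided permutation test, p = 0.0714, the smallest that 2 against 6 mice can give, adjusted p = 0.267 over 4 comparisons). After thinning every cell to 1000 UMIs, which left out between 318 and 2137 cells of a mouse, the means were 0.473% ± 0.273 and 0.167% ± 0.112, with 5 of 6 NASH mice higher than either control (exact permutation p = 0.143). Between the models the difference was 0.564 points in favour of WD+F+CCl4 (exact permutation p = 0.7), and it turned to -0.269 points without WD+F+CCl4 replicate 2. A share cannot say whether these cells grew in number or others fell.

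**Figure D2:**
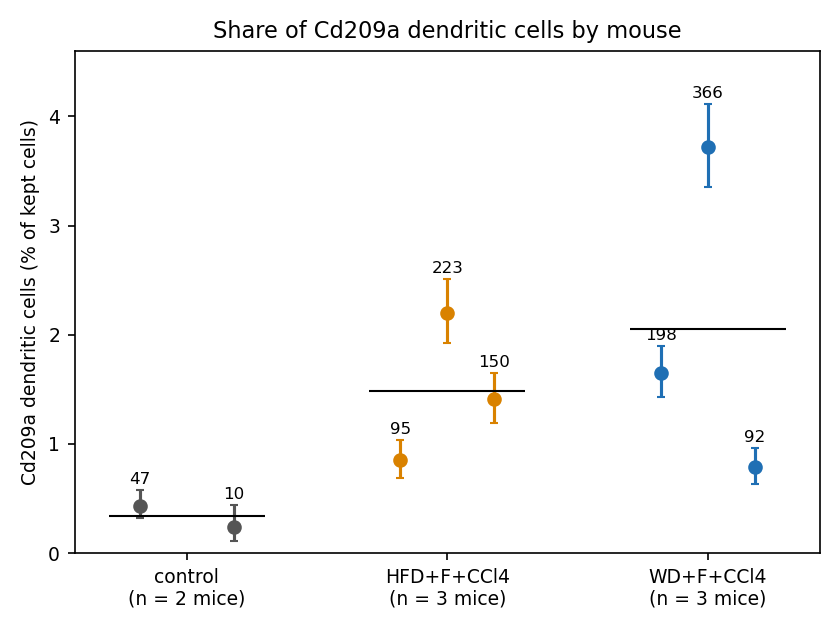
Share of kept cells that met the rule in each mouse (points, percent, with the 95% exact binomial interval, which covers counting error only), by group, with the group mean as a line and the number of cells beside each point. The 6 NASH mice lie between 0.785% and 3.72%, above the controls at 0.240% and 0.436%.

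To place these cells among related cells of the same livers, UMIs were summed per mouse and class and compared with edgeR's quasi-likelihood test with the mouse as a block. The classes were cut by gate genes in the same cells, so the values describe the classes; the gate genes were left out of every count, and other genes were read beside the share of all genes called. Fold changes are log2 values ± SE. Against 704 type 1 DCs in 8 mice, 2225 of 6532 genes passed an adjusted p of 0.05 (34.1%), with 1111 higher (17%) and 1114 lower (17.1%) in the Cd209a DCs.

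The lectins Clec10a and Mgl2 had the largest differences of the 8 genes named as higher than in type 1 DCs. Clec10a exceeded type 1 DCs by 6.81 ± 0.23 and Mgl2 by 5.33 ± 0.34. Slamf9, a SLAM family receptor, averaged 191 against 11.6 CPM, and the lectin Clec4b1 129 against 7.86 CPM. The membrane protein genes Mcemp1 and Tmem176a stood at 197 against 13.3 and 439 against 39.6 CPM. S100a4, a calcium-binding protein, and Dab2, an endocytic adaptor, were higher by 3.62 ± 0.18 and 3.57 ± 0.38. These 8 genes were chosen among those higher in every mouse. The transcription factors of the type 2 lineage went the same way, Irf4 by 3.88 ± 0.29, Zeb2 by 2.36 ± 0.22 and Klf4 by 1.57 ± 0.16, as did the integrin chain Itgam (CD11b) by 3.32 ± 0.17 and the inhibitory receptor Sirpa by 2.15 ± 0.22.

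Genes of the type 1 programme were lower. Irf8 averaged 126 ± 119 CPM against 1987 ± 181, a log2 difference of -4.64 ± 0.16, and Tlr3, the sensor of double-stranded RNA, 8.59 against 268 CPM. The endosomal GTPase gene Rab7b lay at 10.2 against 346 CPM, the nucleotide-sugar receptor P2ry14 at 10.8 against 127 and the surface glycoprotein Cd24a at 34.8 against 479. The sorting nexin Snx22 (2.49 against 134 CPM) and Sept3 (7.27 against 155 CPM) followed. Gcsam, a signalling adaptor, had 0 UMIs in the Cd209a DCs and 997 in type 1 DCs, at least 369-fold lower against a floor of 3 counts over all mice. All 12 tested type 1 markers outside the rule were lower, with a median of -3.54. H2-Ab1 did not pass the test (0.06 ± 0.12, adjusted p = 0.721, edgeR), and 6 of 15 tested genes of the class II presentation list were higher and 0 lower (median 0.25 beside -0.02 over all genes). Of 25 cell cycle genes 0 were higher and 12 lower, Mki67 among them at -0.94 ± 0.16.

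Classical monocytes (1710 cells with at least 2 UMIs of Ly6c2 and a UMI of Ccr2, and none of Cd209a, Flt3 or Klrd1) differed in 3166 of 7914 genes (40%), 1549 higher (19.6%) and 1617 lower (20.4%) in the Cd209a DCs. Scaled by library size alone, the split was 1276 to 2021. Of the genes named as higher, Mgl2 differed most (6.62), followed by a pair of class II genes. H2-Oa, a chain of the H2-O protein that holds back peptide loading, averaged 305 ± 113 against 6.95 CPM, and H2-DMb2, a chain of the H2-M loading protein, 206 ± 67.6 against 8.58 CPM. In counts pooled over all mice, monocytes held only 3.90 CPM of H2-Oa and 2.93 of H2-DMb2. H2-DMb2 shares much of its sequence with H2-DMb1, so its reads are uncertain between both. Ciita, the master activator of class II genes, was higher by 3.59 ± 0.17 and H2-Ab1 by 3.32 ± 0.15. Overall 12 of 16 tested class II presentation genes were higher, and the proteases Ctss and Lgmn were lower (median 2.62).

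Other genes higher than in monocytes were Ccnd1, cyclin D1, at 591 against 23 CPM, Kmo, an enzyme of tryptophan breakdown, at 171 against 7.61, and Cd7 at 182 against 23 CPM. In counts pooled over all mice Cd7 stood at 115 against 5.56 CPM. All 4 tested receptors of the Klr family outside the rule were higher (Klrk1, Klrb1b, Klre1 and Klri2, median 3.72), Klrk1 at 116 against 30.1 CPM. Of 25 cell cycle genes 20 were higher and 0 lower. Secreted and granule genes of monocytes were lower: the proteoglycan Vcan at 2.87 against 211 CPM, the collagenase Mmp8 at 1.97 against 127, the chitinase-like Chil3 at 61.8 against 2229 and fibronectin, Fn1, at 92.4 against 1331 CPM. The coagulation genes F13a1 and F10 were lower by 4.30 ± 0.33 and 3.98 ± 0.20 on the log2 scale, haptoglobin, Hp, by 4.11 ± 0.16 and the glutathione transferase Mgst1 by 3.99 ± 0.24. Lyz2, lysozyme, stood at 2082 ± 1972 against 17470 ± 4519 CPM. Of 17 tested monocyte genes 15 were lower and only Ly6a was higher.

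Mature DCs (130 cells with at least 2 UMIs of Fscn1 and a UMI of Ccr7, of which 115 lay in the 6 mice with 10 or more of them and were compared) differed in 1017 of 2632 genes (38.6%), 522 higher (19.8%) and 495 lower (18.8%) in the Cd209a DCs. Library-size scaling gave 739 and 413, and without HFD+F+CCl4 replicate 3, 436 of the 979 genes then tested passed. All 14 tested genes of the maturation and lymph node migration list were lower (median -4.35 beside 0.10 over all genes), with the chemokine Ccl22 at -5.66 ± 0.33 and the amino acid oxidase Il4i1 at -4.98 ± 0.22. Ccl5, a chemokine for T cells, averaged 226 against 4782 CPM and the fatty acid carrier Fabp5 67.8 against 3811 CPM. Socs2, an inhibitor of cytokine signalling, lay at 3.35 against 491 CPM, and the adenylyl cyclase Adcy6, Apol7c and Zmynd15 were lower by 6.79 ± 0.43, 6.65 ± 0.54 and 6.44 ± 0.32. With 1 mouse left out the change of Apol7c ran from -11.2 to -6.03. The channel subunit Cacnb3 had 2 UMIs in the Cd209a DCs and 292 in mature DCs, and Nudt17 had 0 and 188, at least 388-fold lower.

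Genes higher than in mature DCs included Clec10a, with 1099 UMIs against 0 in mature DCs (at least 59.1-fold), the interferon-induced genes Ifitm6 (4.68 ± 0.45) and Ifi203 (4.14 ± 0.39), and Alox5ap of leukotriene synthesis at 663 against 26.4 CPM. The G protein subunit Gng2, the lipid amidase Naaa, creatine kinase Ckb and Ccr2 were higher by 4.05 ± 0.52, 3.93 ± 0.52, 3.80 ± 0.36 and 3.79 ± 0.30. H2-Ab1 was higher by 0.87 ± 0.18 and the class I chain H2-K1 lower by 1.25 ± 0.17. Of 16 tested class I presentation genes 2 were higher and 11 lower, whereas of 15 class II genes 7 were higher and 2 lower.

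**Figure D3:**
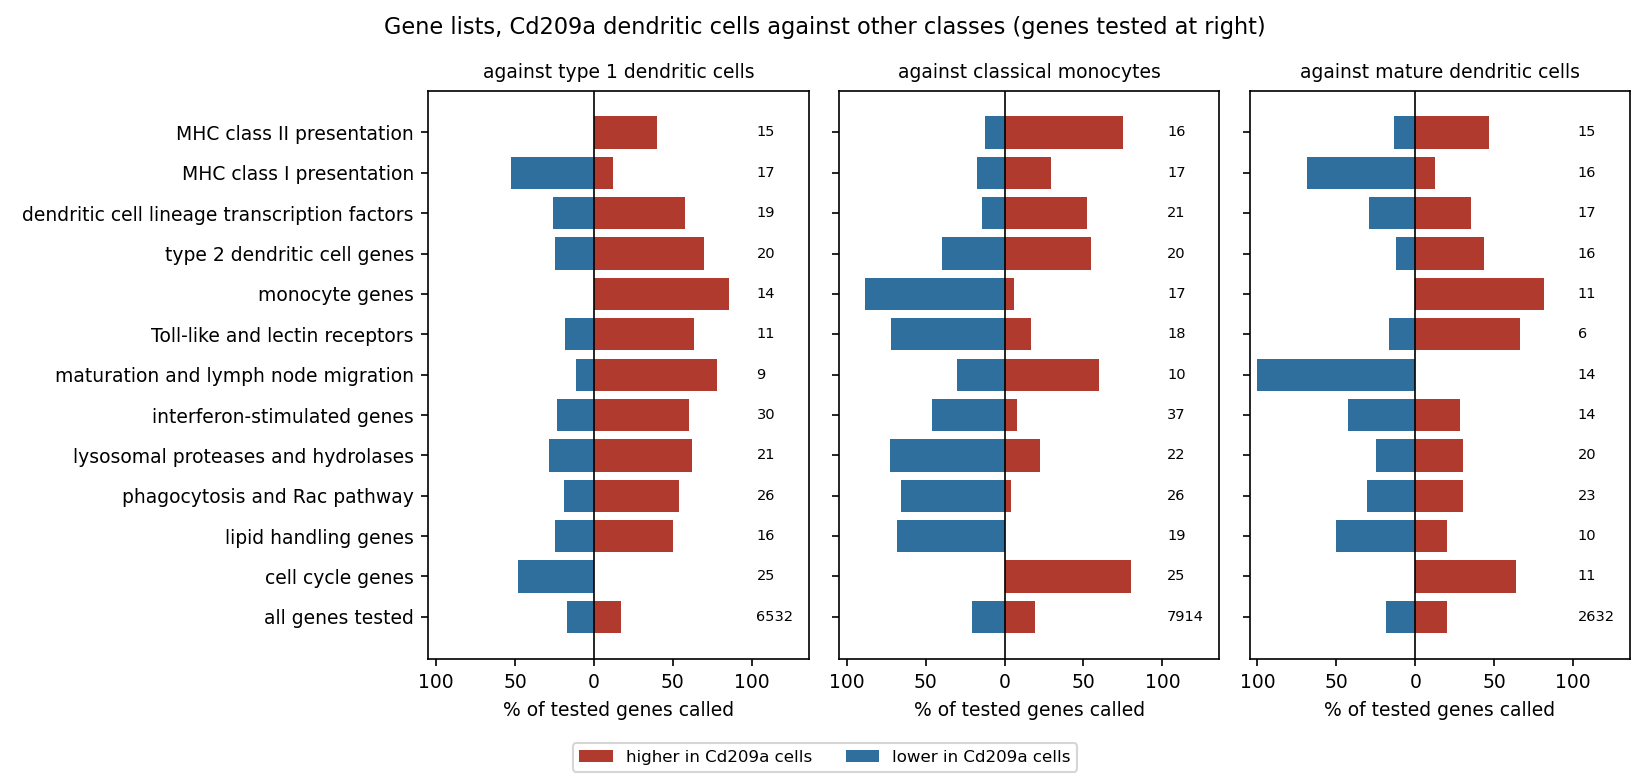
Percent of the tested genes of 13 lists (rows, with the number tested at the right) that were higher or lower in the Cd209a DCs than in type 1 DCs, classical monocytes and mature DCs (panels; edgeR, adjusted p of 0.05). Maturation genes are lower in 14 of 14 against mature DCs and class II presentation genes higher in 12 of 16 against monocytes.

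Within the Cd209a DCs, NASH was compared with control in 1 edgeR fit of the 3 groups. Of 8526 genes, 146 passed an adjusted p of 0.05 (1.71%), 49 higher in NASH (0.575%) and 97 lower (1.14%). DESeq2 called 170. HFD+F+CCl4 against control gave 86 genes (1.01%), 33 higher (0.387%) and 53 lower (0.622%), and WD+F+CCl4 against control 145 (1.7%), 58 higher (0.68%) and 87 lower (1.02%), and both use the same 2 control mice. CPM without overlap between the groups was common by itself, at 18.4% of all genes higher in NASH and 11% lower, so the absence of overlap adds little for a single gene. Without control replicate 1, which leaves the 10 cells of control replicate 2 as the only control, just 1 gene was called (Gzma) and none of the genes named below. The median change over all genes then moved from 0.12 to 2.92, so changes without that mouse are to be read against 2.92. Without control replicate 2, 137 genes were called, 101 of them among the 146. With possible doublets left out, control replicate 2 fell under 5 cells and left the fit, 68 genes were called and 44 of these were among the 146. Both of these alternatives leave control replicate 1 as the only control, which is assumed to vary like the NASH mice, and so they are not independent checks.

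Ifitm1, Cd72 and F11r were among the 12 largest rises named. The named rises and falls had a mean log2 CPM of at least 6 and no overlap between control and NASH. Ifitm1, an interferon-induced membrane protein, lay at 18.8 and 0 CPM in the controls, at 297, 244 and 509 in HFD+F+CCl4 and at 774, 553 and 855 in WD+F+CCl4, a log2 change of 4.90 ± 0.61 (adjusted p = 0.000196). Cd72, an inhibitory lectin of antigen-presenting cells, rose from 15.0 and 50.5 CPM to 300, 198 and 175 in HFD+F+CCl4 and 345, 323 and 234 in WD+F+CCl4 (3.89 ± 0.52, adjusted p = 0.000373). F11r, a junctional adhesion molecule, was at 22.5 and 50.5 in controls against 325, 243 and 192 and then 189, 219 and 206 CPM (3.22 ± 0.43, adjusted p = 0.000389). By this choice every NASH mouse lay above both controls in these 3 genes. The models overlapped except in Ifitm1, where every WD+F+CCl4 mouse was above every HFD+F+CCl4 mouse, as was true of 4.42% of all genes. Ifitm1 did not pass the test between the models. The calls of Ifitm1, Cd72 and F11r stayed without control replicate 2 and without possible doublets.

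Further rises began from controls at or near 0. Dhrs3, a retinal reductase, had 0 UMIs in the controls and 34.2 to 112 CPM in the NASH mice, at least 7.71-fold higher against a floor of 3 counts over both controls (adjusted p = 0.0105). Il21r, the interleukin-21 receptor, had 2 UMIs in the controls, Fcgr1, the high-affinity IgG receptor, 3, and Arhgap27, a GTPase-activating protein, 3. Their pooled ratios of NASH to control were 10.9 (95% counting interval 3.00 to 90.1), 7.22 (2.46 to 35.1) and 6.09 (2.07 to 29.6). Acp5, an acid phosphatase, rose by 2.88 ± 0.51, Basp1, a membrane-bound actin regulator, by 2.77 ± 0.43, the metallothionein Mt1 by 2.76 ± 0.49, the inhibitory sialic acid receptor Siglece by 2.72 ± 0.49 and Abi3, a regulator of actin, by 2.69 ± 0.47. For each of these 5 genes control replicate 2 was at 0, so only control replicate 1 gave a level. The calls of Dhrs3, Il21r, Fcgr1 and Arhgap27 were lost with possible doublets left out.

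Within the 12 named falls, Ccl5, the hepatocyte genes Alb and Apoa2 and the monocyte gene Fn1 came first. In pooled counts of the 6 mice compared above, mature DCs held 4072 CPM of Ccl5 against 91.6 in the Cd209a DCs. Ccl5 also fell in type 1 DCs, by 3.23 on the log2 scale (adjusted p = 0.00596, edgeR). Larger falls outside the limits for named genes, Cxcl11 among them, are given below. Ccl5 lay at 796 and 404 CPM in the controls, 38.6, 21.8 and 73.9 in HFD+F+CCl4, and 31.9, 46.6 and 19 in WD+F+CCl4 (-3.99 ± 0.37, adjusted p = 6.53e-06), and without possible doublets its change was 0.51 with an adjusted p of 0.89. Alb, the serum albumin of hepatocytes, lay at 1190 and 606 in the controls and between 18.7 and 269 in the NASH mice (-3.64 ± 0.46, adjusted p = 0.000214), and Apoa2 and Trf, also products of hepatocytes, fell by 3.46 ± 0.51 and 1.64 ± 0.35 on the log2 scale. Of 14 tested hepatocyte markers 9 fell, as did 4 of 5 tested T cell markers and 2 of 4 tested NK cell markers, beside 1.14% of all genes. A gene could pass the filter on counts through the 2 controls alone. All 12 T cell markers summed to only 10.6 to 36.7 CPM in the NASH mice. The tested ones may thus have entered by their control levels, and these counts are a description only. The antibody gene Igkc fell by 2.31 ± 0.51 and the interferon-responsive transcript AW112010 by 2.19 ± 0.27. The calls of Igkc, AW112010 and Trf were lost without possible doublets, and those of Alb and Apoa2 were not. The falls of hepatocyte, T cell and NK cell markers moved with the RNA of other cells given above. The part of such RNA in these and the other falls was not tested beyond possible doublets and the comparison with cells with Cd3e below.

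Lyz2 stood at 6354 and 3788 CPM in the controls, 1053, 870 and 1231 in HFD+F+CCl4, and 1077, 1002 and 1279 in WD+F+CCl4, a change of -2.07 ± 0.29 (adjusted p = 0.000624). Fn1 lay at 251 and 253 CPM against 28.1, 34.0 and 65.6 and then 50.5, 23.8 and 32.9 CPM (-2.56 ± 0.37, adjusted p = 0.000788). F13a1 was at 297 and 354 against 8.16 to 36.9 CPM (-4.04 ± 0.44, adjusted p = 5.94e-05), and Ly6c2 at 289 and 152 against 24.5 to 117 CPM (-1.94 ± 0.40, adjusted p = 0.0143). In all 4 monocyte genes every NASH mouse was below both controls, by which Lyz2, Fn1 and Ly6c2 had been chosen. The calls of all 4 genes stayed with possible doublets left out. Without control replicate 1 the changes were -0.995 for Lyz2, -1.86 for Fn1, -3.54 for F13a1 and -0.42 for Ly6c2, and none passed. Of 18 tested monocyte genes 4 fell and 2 rose (Fcgr1 and Ly6a), beside 1.14% and 0.575% of all genes. The median change was 0.20 beside 0.12 over all genes. The summed level of 11 classical monocyte markers, led by Plac8, was 3220 and 3233 CPM in the controls and 1757 to 3846 in the NASH mice, and so overlapped. Hpgd, an enzyme that breaks down prostaglandins, fell by 2.02 ± 0.43, the desaturase Scd2 by 1.63 ± 0.32 and Irf8 by 1.46 ± 0.30. The calls of Igkc, Hpgd and Irf8 were lost without control replicate 2, and those of these 3 genes and of Scd2 without possible doublets.

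**Figure D4:**
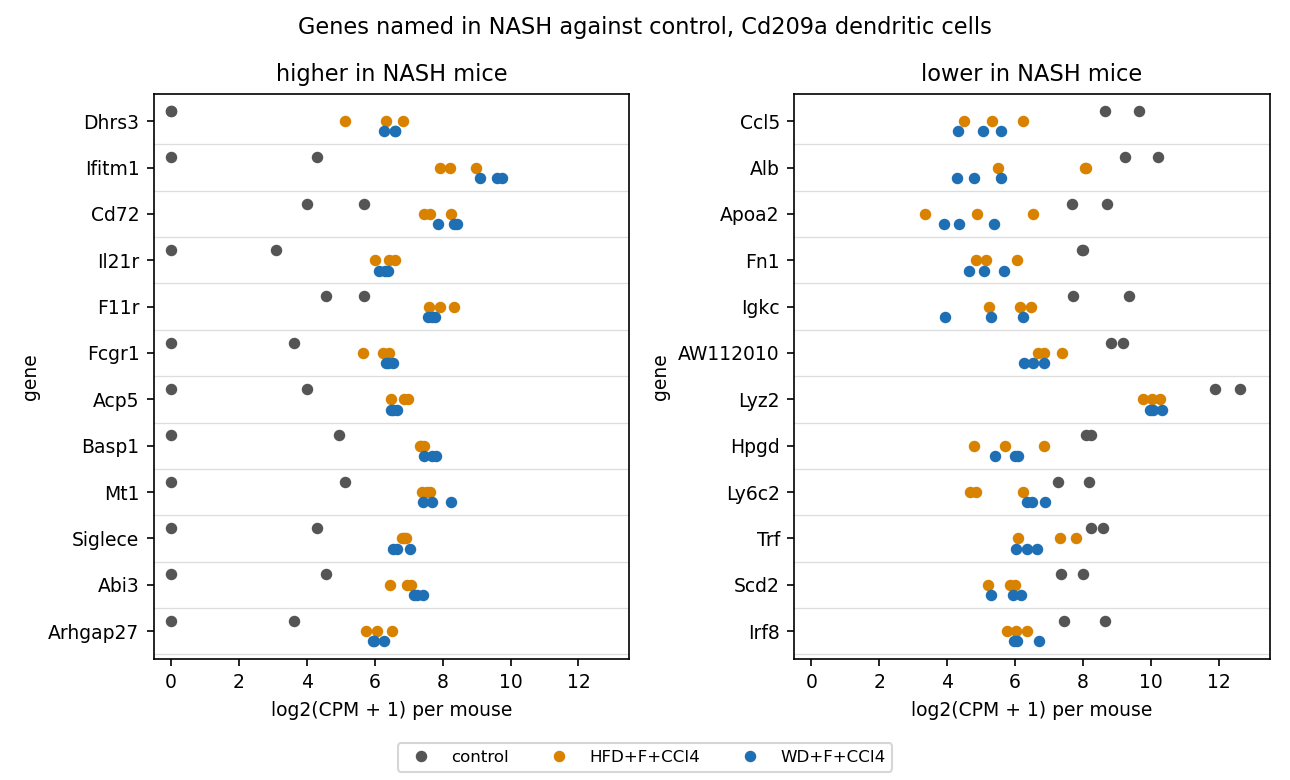
Level in the Cd209a DCs of each mouse (points, log2 of CPM + 1, coloured by group) of the 12 largest rises and the 12 largest falls in NASH among genes with an adjusted p of 0.05 or less, a mean log2 CPM of at least 6 and no overlap between control and NASH. Ifitm1 runs from 0 and 18.8 CPM in controls to 855 CPM in NASH, and Ccl5 from 796 and 404 CPM down to 19 CPM.

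Because free RNA of other cells enters every droplet, the 24 genes named for NASH were also followed in cells with Cd3e and no Cd209a, a comparison added after the data had been seen. The NASH change in the Cd209a DCs minus that in cells with Cd3e passed in 194 of 11775 genes (1.65%), 41 higher (0.348%) and 153 lower (1.3%). It passed for 3 of the 12 rises, Cd72 (3.26 ± 0.54, adjusted p = 0.00132), Il21r (3.51 ± 0.68, adjusted p = 0.00551) and Arhgap27 (2.48 ± 0.64, adjusted p = 0.0482), and for 5 of the 12 falls (Ccl5, Fn1, AW112010, Lyz2 and Hpgd). Ccl5 itself changed by 1.57 in the cells with Cd3e (adjusted p = 0.0890), so its difference also holds a change in those cells. Cd72 lay at 31.2 and 45.5 CPM in the control cells with Cd3e and at 39.6 to 69.7 CPM in the NASH ones. Fcgr1, Acp5, Basp1, Mt1, Siglece and Abi3 rose in the cells with Cd3e too, and the difference between both kinds of cell did not pass for these 6 genes. No macrophage gene was used to exclude cells from those with Cd3e. Their 12 Kupffer cell markers summed to 89.3 and 131 CPM in the controls and to 738 to 3619 in the NASH mice. Whether free RNA, doublets or wrongly taken cells gave this was not tested. The differences of Alb, Apoa2 and Irf8 did not pass either, and these genes fell in the cells with Cd3e too, by 3.31, 3.81 and 1.10 on the log2 scale (adjusted p = 0.0176, 0.00625 and 0.0163). Lyz2 rose there by 1.34 (adjusted p = 0.0226). Mt1 went there from 15.9 and 24 CPM to between 94.0 and 160 CPM. Ifitm1 lay there at 9.10 and 37.5 against 27.8 to 83.4 CPM, and its difference of 2.98 ± 0.82 did not pass (adjusted p = 0.0748). Without control replicate 1 the whole comparison called 5 genes, and the median difference over all genes moved from 0.17 to 5.35.

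Calls in the lists of pathway genes were read beside the 1.71% of all genes called, a share at which a list of this size holds a called gene or none. None of the lists for class I presentation (17 tested), co-stimulatory and inhibitory ligands (12), cytokines (11), lysosomal proteases and hydrolases (22), phagocytosis and the Rac pathway (26), glycolysis (17), nuclear genes of the respiratory chain (28), AP-1 and immediate early genes (24) or the cell cycle (25) had a called gene in NASH against control. In the cell cycle list 23 of 25 changes were positive, with a median of 0.92, and Mki67 lay at 67.6 and 50.5 CPM in the controls and at 38.1 to 198 in the NASH mice, which overlapped (adjusted p = 0.385). Of 40 genes of the interferon-stimulated list, which leaves out Ifitm1 and AW112010, only Iigp1 passed. Iigp1 fell by 3.64 ± 0.73, with control replicate 1 at 143 CPM and control replicate 2 at 0. Its sign turned without control replicate 1. Of 12 chemokine ligands Cxcl16, the ligand of Cxcr6, rose and Ccl5 and Cxcl11 fell. Cxcl11 lay at 116 and 0 CPM in the controls and 0 to 41.5 in the NASH mice, and its change of -4.55 (adjusted p = 0.0211) turned to 5.03 (adjusted p = 0.859) without control replicate 1, beside the median of 2.92. Of 20 tested genes of the lipid list 1 rose and 3 fell. Plin2, which coats lipid droplets, rose from 30.03 and 50.5 CPM to between 128 and 245 (2.68 ± 0.43, adjusted p = 0.00205), while Sqle and Scd2, genes of sterol synthesis and fatty acid desaturation, were among those that fell. The calls of Iigp1, Cxcl11 and Plin2 stayed without possible doublets, those of Cxcl16, Sqle and Scd2 did not.

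Of 21 tested type 2 DC genes 1 rose, beside 0.575% of all genes, and none fell. It was Itgax (CD11c), which rose from 165 and 50.5 CPM to between 297 and 391 (1.31 ± 0.32, adjusted p = 0.0497), a call that was lost when any of 7 single mice was left out. Clec10a, Sirpa and Zbtb46 changed by 0.19, -0.01 and -0.06, and did not pass. Mgl2 lay at 285 and 354 CPM in the controls and 40.6 to 168 in the NASH mice without overlap, and did not pass (-1.34 ± 0.42, adjusted p = 0.139). Irf4 stood at 150 and 101 against 36.0 to 80.7 CPM (-1.17 ± 0.36, adjusted p = 0.124). Cd209d, a lectin close in sequence to Cd209a whose reads may be shared with it, fell by 3.07 ± 0.44 (adjusted p = 0.000692). Of 20 lineage transcription factors, Id2, an inhibitor of E proteins needed for DC development, rose from 289 and 455 to between 573 and 885 CPM (1.39 ± 0.29, adjusted p = 0.0146), and Irf8 fell. Fmnl1 and Myh9, actin regulators that the study followed in monocytes, macrophages and DCs as 1 system, changed by -0.06 ± 0.26 and 0.34 with adjusted p-values of 0.96 and 0.628.

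Most MHC class II genes had a positive change in NASH that did not pass the test. In 15 of 17 tested genes of the class II presentation list the change was positive, with a median of 0.90 beside 0.12 over all genes, and 2 rose. H2-Oa lay at 135 and 152 CPM in the controls, 451, 406 and 372 in HFD+F+CCl4 and 305, 283 and 339 in WD+F+CCl4 (1.45 ± 0.29, adjusted p = 0.0109). H2-DMb2 lay at 78.8 and 152 against 288, 250 and 256 and then 179, 237 and 211 CPM (1.50 ± 0.31, adjusted p = 0.0136), a call that was lost without possible doublets. H2-Ab1 stood at 5363 and 6061 CPM in the controls, 9986, 10279 and 10286 in HFD+F+CCl4 and 11234, 9691 and 9437 in WD+F+CCl4, without overlap, and missed the threshold (1.13 ± 0.32, adjusted p = 0.0895). The same held for H2-Aa (0.88, adjusted p = 0.239), H2-Eb1 (0.95, adjusted p = 0.173) and the invariant chain Cd74 (0.90, adjusted p = 0.267), and Ciita changed by 0.48.

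Many class II promoters share short elements, among them a CCAAT box that reads GATTGG on the coding strand (the Y box). To show it in 4 of the 6 class II genes whose NASH change differed between DC types below, the 80 bases around it, upstream of the start, are given from RefSeq (GRCm38.p6), 5′ to 3′ on the strand of the gene, with GATTGG in capitals. The element begins 49, 60, 91 and 44 bases before the RefSeq start of H2-Aa (chr17:34287848-34287927, minus strand), H2-Eb1 (chr17:34305752-34305831, plus strand), H2-DMb2 (chr17:34145103-34145182, plus strand) and H2-Oa (chr17:34092280-34092359, plus strand).
H2-Aa: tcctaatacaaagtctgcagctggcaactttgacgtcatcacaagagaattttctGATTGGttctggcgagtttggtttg
H2-Eb1: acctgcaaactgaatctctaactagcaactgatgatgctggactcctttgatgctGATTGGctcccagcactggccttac
H2-DMb2: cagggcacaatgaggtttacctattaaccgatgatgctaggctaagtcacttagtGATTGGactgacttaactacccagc
H2-Oa: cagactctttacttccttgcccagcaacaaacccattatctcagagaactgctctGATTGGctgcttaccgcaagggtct
GATTGG or its reverse complement CCAATC was found in the 250 bases before 4783 of 32851 promoters (14.6%). Of the 18 genes in the class II list 13 had an entry, and 9 of their 17 promoters held the letters (52.9%). H2-Ab1 and Cd74 were among the genes without an entry, so they were not searched and are not shown. In GENCODE vM21 H2-DMb2 starts at base 34143307, so its window lies inside that longer gene model, and H2-Oa starts at base 34092340, so that its window runs past that start. A match is a description of the sequence and not a measured site.

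Whether the NASH change of these genes differed between DC types was tested as an interaction, in a fit of the Cd209a DCs and type 1 DCs of the same 8 mice. It passed in 15 of 8625 genes (0.174%), 13 of them more positive in the Cd209a DCs (0.151%) and 2 less (0.0232%). Scaled by library size alone, this split was 3 to 4. Of the 13 genes, 6 were class II presentation genes. The difference of the changes was 1.01 ± 0.17 for H2-Eb1 (adjusted p = 0.0201), 0.94 ± 0.16 for H2-Aa (adjusted p = 0.0201), 0.83 ± 0.15 for H2-Ab1 (adjusted p = 0.0225) and 0.85 ± 0.16 for Cd74 (adjusted p = 0.0225). H2-Oa differed by 1.83 ± 0.34 (adjusted p = 0.0225) and H2-DMb2 by 1.68 ± 0.35 (adjusted p = 0.0498). In type 1 DCs H2-Eb1 lay at 6119 and 6111 CPM in the controls and at 5275 to 7405 in the NASH mice, which overlapped, and H2-Oa at 170 and 149 against 93.9 to 181 CPM. Over the 17 genes of the list the median difference was 0.66 beside 0.10 over all genes. Id2 (1.61 ± 0.29, adjusted p = 0.0225) and Ly6e (1.13 ± 0.19, adjusted p = 0.0201), a membrane protein induced by interferon, went the same way, and Lyz2 the other way (-1.72 ± 0.35, adjusted p = 0.0422).

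These calls depended on the controls and on the scaling. DESeq2 called 81 genes, 8 of them among the 15, with H2-Eb1, H2-Aa, H2-Ab1, Cd74 and H2-Oa among these 8, and gave no adjusted p for H2-DMb2. Scaled by library size alone, the median over all genes moved from 0.10 to -0.11 and 7 genes were called, with H2-Aa and H2-Eb1 still past the threshold and H2-Ab1 (0.45, adjusted p = 0.063) and Cd74 (0.44, adjusted p = 0.056) not. Without possible doublets control replicate 2 left the fit. Control replicate 1 alone then stood for the controls and was assumed to vary like the other mice. The differences were 0.67 for H2-Ab1, 2.19 for Id2 and -2.94 for Lyz2. Most of the 15 genes were then not called, and neither were most of the other class II genes among them. Without control replicate 1 the median over all genes moved to 0.73, so that H2-Ab1, at 0.89 (adjusted p = 0.003), lay little above it. Of the 63 genes then called 60 were higher and 5 were among the 15, and the calls of H2-Oa, H2-DMb2, Id2 and Lyz2 were lost. Without HFD+F+CCl4 replicate 2, 5 genes were called. Of the 24 genes named for NASH only Lyz2 differed from type 1 DCs, and the other 23 did not pass, so their changes cannot be called particular to the Cd209a DCs among DCs.

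**Figure D5:**
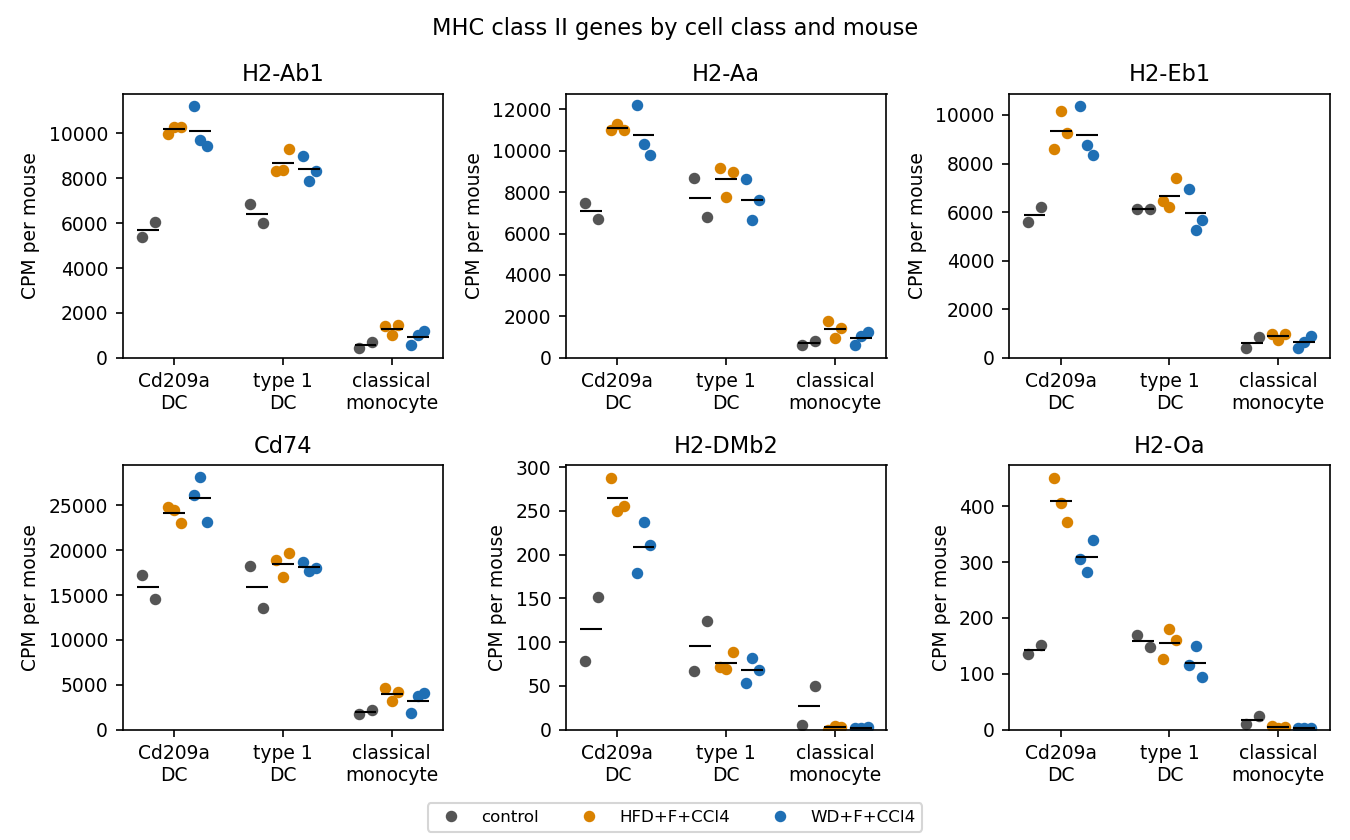
Level of 6 genes (panels, CPM) in the Cd209a DCs, type 1 DCs and classical monocytes of each mouse (points coloured by group). In the Cd209a DCs H2-Ab1 lies at 5363 and 6061 CPM in controls and at 9437 to 11234 CPM in NASH, while in type 1 DCs H2-Eb1 of the controls lies within the range of the NASH mice.

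Against classical monocytes the interaction passed in 69 of 10193 genes (0.677%), 41 more positive in the Cd209a DCs (0.402%) and 28 less (0.275%), a split that was 19 to 33 when scaled by library size alone. Id2 differed by 2.89 ± 0.24 (adjusted p = 6.91e-09), as it stood in monocytes at 388 and 596 CPM in the controls and at 118 to 228 CPM in the NASH mice. The H2-O chains H2-Ob and H2-Oa differed by 3.99 ± 0.59 (adjusted p = 0.000263) and 3.11 ± 0.61 (adjusted p = 0.00738), and H2-DMb2 by 3.37 ± 0.75 (adjusted p = 0.0267), while H2-Ab1 did not differ past the threshold (0.03, adjusted p = 0.999). In monocytes these 3 genes were near the floor, with 44, 40 and 30 UMIs in all mice. H2-Ob lay there at 17.8 and 62.1 CPM in the controls and 0.666 to 6.54 in the NASH mice, H2-Oa at 9.52 and 24.9 against 2.14 to 5.70, and H2-DMb2 at 4.76 and 49.7 against 0 to 4.36 CPM. With 1 mouse left out the differences ran from 3.56 to 7.02 for H2-Ob, 2.89 to 4.51 for H2-Oa and 2.54 to 5.37 for H2-DMb2, each lowest without control replicate 2 and highest without control replicate 1. The call of H2-DMb2 was lost without either control and that of H2-Oa without control replicate 1. Ly6a, a surface protein of many blood cells, differed by 2.45 ± 0.44. The falls of Lyz2, Fn1 and F13a1 were deeper in the Cd209a DCs, by 1.32 ± 0.16, 1.76 ± 0.34 and 3.21 ± 0.40 on the log2 scale when monocytes were taken as the base. Alb fell less than in monocytes (1.28 ± 0.27). With possible doublets left out, again with 1 control, 30 genes were called, and without control replicate 1 only 6. Of the falls named for NASH, 7 of 12 differed from monocytes, and of the rises 1 of 12 (Arhgap27). Among these 7, Apoa2 (1.63) and Igkc (2.43) fell less in the Cd209a DCs, as Alb did. In the monocytes themselves 8 of the 12 rises and 7 of the 12 falls were called.

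The diets were compared as WD+F+CCl4 against HFD+F+CCl4. Of 8526 genes 1 passed (0.0117%), 322 had an unadjusted p under 0.05, and DESeq2 also called 1. Chil3, a secreted chitinase-like protein of neutrophils and monocytes, lay at 12.3, 7.48 and 9.24 CPM in HFD+F+CCl4 and at 264, 92.2 and 41.5 in WD+F+CCl4, without overlap, as was true of 4.42% of all genes in this direction and 5.02% in the other (3.91 ± 0.57, adjusted p = 0.0202). The highest value was in WD+F+CCl4 replicate 1, where neutrophil markers summed to 7155 CPM. The call of Chil3 stayed by DESeq2 (adjusted p = 0.000185) and without possible doublets (0.00745), and also without WD+F+CCl4 replicate 1 (2.93, adjusted p = 0.00484). It was lost when control replicate 1 (adjusted p = 0.39), control replicate 2 (0.465) or HFD+F+CCl4 replicate 2 (0.0758) was left out, under a minimum count of 30 (0.152), in a fit of both models alone (0.265), with at least 1 UMI of Cd209a (0.268) and with more than 1000 genes per cell (0.466). Cells thinned to 1000 UMIs gave 3 other calls. A fit with the replicate number as a block called more genes, as given in the closing sections. Without HFD+F+CCl4 replicate 1 or 3, 9 genes were called. Jun, a subunit of AP-1, spread from 122 to 1336 CPM over the HFD+F+CCl4 mice and from 261 to 608 over the WD+F+CCl4 mice.

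Few genes differed within the Cd209a DCs along the part of the rule that took either Flt3 or Klrd1. Cells with Flt3 were compared with cells that had Klrd1 alone in 7 mice with at least 10 of each. Of 5372 genes 3 passed (0.0558%), 2 higher (0.0372%) and 1 lower (0.0186%) with Flt3, and 300 had an unadjusted p under 0.05, while DESeq2 called 2, both lower and 1 of them among the 3, so that it called neither Spp1 nor Ly6c2. Spp1, osteopontin, averaged 93.6 CPM in cells with Flt3 against 32.7 (1.50 ± 0.25, adjusted p = 0.0111), and Ly6c2 135 against 49.2 CPM (1.30 ± 0.24, adjusted p = 0.0273). H2-Eb1 was lower in cells with Flt3, at 8099 against 9757 CPM (-0.34 ± 0.06, adjusted p = 0.0307). It was lower in 7 of 7 mice, which the limits for named genes required. Spp1 and Ly6c2 did not meet all of these limits. In the cell cycle list 17 of 23 changes were positive (median 0.25) and 0 passed. Leaving out 1 mouse gave between 0 calls (without WD+F+CCl4 replicate 1) and 6 (without HFD+F+CCl4 replicate 3, and without control replicate 1), and there was 1 call without WD+F+CCl4 replicate 2 and 5 without HFD+F+CCl4 replicate 2.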

How the data were processed

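The authors deposited raw UMI counts for the 8 libraries in a single matrix, made with bcl2fastq 2.20 and Cell Ranger on GRCm38. No step against free RNA or doublets is named in the methods or labels. The mouse of a cell came from its barcode suffix. The cells and gene lists were chosen with earlier results of these data known. The rule genes, and Ly6c2, Ccr2 and Ccr7 where they set a gate, were left out of counts of calls. Raw counts were summed per mouse over at least 5 Cd209a DCs (10 cells per class between classes) and tested with edgeR 4.0.16 (quasi-likelihood, TMM, filterByExpr minimum 10) in R 4.3.3, with Benjamini-Hochberg adjustment over all genes tested; an adjusted p with no other test named is from this test. Named genes are the 12 largest rises and falls (8 each way between classes, in the same direction in every mouse) with an adjusted p under 0.05 and a mean log2 CPM of at least 6; others come from 39 lists of 606 genes, 602 of them found, or were chosen after their values were seen. Some genes that the rule or the lists name are not reported here. Shares were tested over mice with exact permutation tests. On simulated data with 200 changed genes, edgeR recovered 93.5% in NASH against control (8093 genes, 7 false calls) and DESeq2 1.42.0 87%. Alternatives were other normalization, tools, filters, Cd209a limits, thinning to 1000 UMIs (seed 1), a replicate block, and leaving out possible doublets or each mouse. Figures used matplotlib 3.10.9 in Python 3.11.15.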

Additional observations from a re-analysis of the deposited data

Results flagged for a closer look

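In 12 of 76 sets of 6 NASH values the highest or lowest mouse lay far from the others by Dixon's test, which chance does in about 1 in 20 sets. WD+F+CCl4 replicate 1 stood apart in 5 of them: Chil3 at 264 CPM, Ly6a at 1049 CPM, Mt1 at 302 CPM and neutrophil markers at a sum of 7155 CPM were high, and Mki67 at 38.1 CPM was low. WD+F+CCl4 replicate 3 was high in Cxcl11 (41.5 CPM) and Iigp1 (48.5 CPM). HFD+F+CCl4 replicate 3 was high in Cxcl16 (242 CPM) and in the summed markers of erythroid cells and platelets (2937 CPM). HFD+F+CCl4 replicate 1 was high in the summed markers of stellate cells and fibroblasts (184 CPM), cholangiocytes (390 CPM) and basophils and mast cells (8.78 CPM).

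The NASH change differed between the Cd209a DCs and another class of cells in a test of the difference itself (edgeR). Against type 1 DCs the differences, in log2, were 0.83 for H2-Ab1, 0.94 for H2-Aa, 1.01 for H2-Eb1, 0.85 for Cd74, 1.68 for H2-DMb2, 1.83 for H2-Oa, 1.61 for Id2, 1.13 for Ly6e and -1.72 for Lyz2. Of other genes, the stem and endothelial cell antigen Cd34 differed by 2.68, Pkib, an inhibitor of protein kinase A, by 1.87 and Apol7c by -6.56. The globin genes Hbb-bs, Hba-a1 and Hba-a2 differed by 3.86, 3.52 and 3.63, and Hba-a1 and Hba-a2 are near-identical copies whose reads are uncertain between both. Summed erythroid markers in the Cd209a DCs were 120 and 505 CPM in the controls and 7.02 to 2937 CPM in the NASH mice, whose part in this difference was not tested; the methods lysed red blood cells before the libraries were made.

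Against classical monocytes the differences were 3.11 for H2-Oa, 3.37 for H2-DMb2, 3.99 for H2-Ob, 2.89 for Id2, 2.45 for Ly6a and 1.28 for Alb. They were -1.32 for Lyz2, -1.76 for Fn1, -3.21 for F13a1, -1.57 for the apolipoprotein Apoe, -5.68 for the complement gene C1qb and -2.52 for Scd2. With 1 mouse left out that of C1qb ran from -6.27 to 4.98. Against cells with Cd3e they were 2.53 for H2-Oa, 3.21 for H2-DMb2, 3.39 for H2-Ob, 2.44 for Id2, 2.39 for Ly6a, 3.26 for Cd72, 3.51 for Il21r and 2.48 for Arhgap27. They were -5.23 for Ccl5, -3.21 for Lyz2, -2.68 for Fn1, -4.94 for F13a1, -1.67 for AW112010 and -2.33 for Hpgd.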

How the results depend on the processing

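Depth and number limited the controls: 57 cells in all, 10 of them in control replicate 2 with a median of 1353 UMIs. Over the values of single genes and comparisons, leaving out 1 mouse kept 1274 on the same side of the threshold in the same direction, 144 lost the call, 8 gained it and 8 changed sign. The other alternatives kept 1088, while 123 lost the call, 28 gained it and 4 changed sign. Where a call was lost the cause was not tested, beyond the fewer samples or cells that an alternative leaves by its construction.

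The count of 146 genes in NASH against control became 415 when every gene with at least 1 count was tested, 328 with at least 1 UMI of Cd209a, 68 without possible doublets, 66 with Flt3 required, 43 with cells thinned to 1000 UMIs, and 1 to 198 with 1 mouse left out. In the same order HFD+F+CCl4 against control (86) gave 317, 228, 35, 41 and 27, and 0 to 140 with 1 mouse left out, and WD+F+CCl4 against control (145) gave 396, 300, 59, 56 and 38, and 1 to 200. WD+F+CCl4 against HFD+F+CCl4 (1 gene) gave 81, 0 with at least 1 UMI of Cd209a, 2 with Flt3 required, 3 thinned, 0 with a minimum count of 30, 0 with only the 2 groups, 0 with more than 1000 genes per cell and 0 to 9 with 1 mouse left out. Thinning also lowered the number of genes tested: it took the calls against type 1 DCs from 2225 of 6532 to 504 of 1386, against monocytes from 3166 of 7914 to 1136 of 3208 and against mature DCs from 1017 of 2632 to 251 of 660. Against mature DCs testing every gene gave 2113, and leaving out 1 mouse 436 to 1452. The split by Flt3 (3 genes) gave 43 over every gene and 0 to 6 with 1 mouse left out.

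The difference of NASH changes from type 1 DCs (15 genes) gave 7 by library size alone, 102 over every gene, 81 by DESeq2, 7 without possible doublets and 5 to 63 with 1 mouse left out. That from monocytes (69) gave 148 over every gene, 30 without possible doublets and 6 to 76 with 1 mouse left out, and that from cells with Cd3e (194) gave 336 over every gene and 5 to 250.

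These values changed sign. The share difference between the models ran from -0.269 to 1.20 points with 1 mouse left out. Ccl5 in NASH against control was 0.51 without possible doublets. Fmnl1 was 0.10 over every gene (0.0997), 0.23 without possible doublets, and ran from -0.11 to 0.44 with 1 mouse left out. Such ranges were -3.93 to 6.24 for Iigp1, -4.94 to 5.03 for Cxcl11, -1.31 to 0.0675 for Irf4 and -0.66 to 0.96 for Spp1 (-0.06 without HFD+F+CCl4 replicate 1). The positive ends for Iigp1, Cxcl11 and Irf4 come without control replicate 1, where the median over all genes was 2.92, so that Irf4 stayed below that median. The C1qb difference from monocytes ran from -6.27 to 4.98. Jun between the models ran from -0.96 to 1.11, and was 0.20 with the replicate block.

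The labels do not say whether same-numbered mice of different groups were handled together. The deviations of same-numbered mice correlated at 0.0077 to 0.20, all positive. Between the models they correlated at 0.043, 0.20 and 0.039, against -0.137 to 0.058 for mice of unlike number. HFD+F+CCl4 replicate 1 correlated best with WD+F+CCl4 replicate 3 (0.058). Whether same-numbered mice shared a batch was not tested further. With the replicate block NASH against control gave 193 genes, HFD+F+CCl4 against control 141, WD+F+CCl4 against control 199 and WD+F+CCl4 against HFD+F+CCl4 30. Shares of cells with a UMI of a marker were not tested, since only control replicate 1 had 10 cells of 1000 UMIs.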

Other observations

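Fdps, Idi1, Insig1 and Scd1 were chosen after their values were seen from the 97 genes that fell in NASH (1.14% of those tested), so they stand for no pathway as a whole. Fdps, the farnesyl diphosphate synthase, lay at 86.3 and 152 CPM in the controls, 17.6, 8.16 and 20.3 in HFD+F+CCl4 and 7.09, 7.6 and 12.1 in WD+F+CCl4, without overlap (-2.99 ± 0.45, adjusted p = 0.00102, edgeR). Idi1, of the same pathway, fell by 2.86 ± 0.45 on the log2 scale (adjusted p = 0.00167), and Insig1, a sensor of sterols, by 2.27 (adjusted p = 0.021). The desaturase Scd1 fell by 2.76 (adjusted p = 0.0176). With possible doublets left out, which leaves control replicate 1 as the only control, none of these 4 genes passed, and Fdps changed by -0.44 (adjusted p = 0.911) and Idi1 by -0.35.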
